A study of Mus musculus with 8 samples.

Results

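The genes described are 10 that encode the subunits of the transcription factor NFκB and proteins grouped as its inhibitors. They were taken by name from a table of 55801 genes measured in mouse peritoneal macrophages. The 5 subunit genes are Nfkb1, Nfkb2, Rel, Rela and Relb, and the 5 inhibitor genes are Nfkbia, Nfkbib, Nfkbie, Nfkbiz and Tnfaip3. Nfkbiz is counted with the inhibitors as a relative of the IκB genes, though its protein is also known to help transcription. Each symbol stood on 1 line of the table, and all 10 genes were among the 12189 genes with a mean level of at least 1 TPM (a read level divided by gene length and scaled to the same total of transcripts in every sample) that were tested. The study was set up to learn how the compound C498 acts on inflammatory gene expression. Macrophages were drawn into the abdominal cavity of mice with thioglycollate broth, which leaves elicited rather than resident cells, and the study's methods give the mice as male C57BL/6 aged 6 to 8 weeks. All 4 groups had 2 samples of these cells. The NC group received the vehicle DMSO, and the LPS group received 100 ng/ml LPS, the cell wall component of Gram-negative bacteria, for 4 h. The C498 group received the compound alone at 15 µM. The C498+LPS group received 15 µM C498 for 0.5 h and then the same LPS stimulus. The labels do not say whether the 2 samples of a group came from different mice or cultures, so p-values here measure only the spread between these samples, which may be technical.

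NFκB is a dimer of 2 Rel-family subunits that waits in the cytoplasm of resting cells, bound by an IκB protein. Signals from Toll-like receptors activate the IKK kinase, which marks IκB for degradation, and the freed dimer enters the nucleus and binds short κB sites in DNA. Genes of several subunits and inhibitors are themselves known NFκB targets, so that a macrophage that meets LPS makes new IκBα and A20 and thereby limits its own response. In bulk samples such as these, fewer cells of a type and less RNA per cell cannot be told apart, and RNA levels say nothing of protein or of where in the cell it is.

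The sequences just upstream of these genes are shown because feedback may act through κB sites, some of which can lie near the start of transcription. RefSeq promoter entries on GRCm38.p6 were at hand for 7 of the 10 genes, with 10 entries in all, and the 250 bases before each start were searched on both strands for the κB consensus. This motif, GGG[AG]NN[CT][CT]CC with N for any base, has 10 letters. Sites farther away were not searched, so a missing match does not mean that a gene has no κB site. At least 1 match was found in 7 entries of 5 genes, Nfkbia, Nfkbie, Tnfaip3, Rel and Nfkb2, and none in the entries of Nfkbib and Rela. Of all 32851 mouse promoters in the same table, 2382 (7.25%) held a match in that stretch. Nfkb1, Relb and Nfkbiz had no entry. A match is a stretch of letters and not evidence of binding, and where the motif matched in overlapping frames the capitals cover their union. The upstream stretches of Nfkbia (chr12:55492648-55492897, minus strand), Nfkbie (chr17:45555450-45555699, plus strand) and Rel (chr11:23770970-23771219, minus strand) follow, 5′ to 3′ on the strand of the gene, with the match in capitals:
Nfkbia: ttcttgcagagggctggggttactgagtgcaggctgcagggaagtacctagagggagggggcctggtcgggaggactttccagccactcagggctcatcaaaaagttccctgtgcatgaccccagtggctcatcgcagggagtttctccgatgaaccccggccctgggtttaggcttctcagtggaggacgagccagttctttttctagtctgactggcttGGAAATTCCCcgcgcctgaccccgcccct
Nfkbie: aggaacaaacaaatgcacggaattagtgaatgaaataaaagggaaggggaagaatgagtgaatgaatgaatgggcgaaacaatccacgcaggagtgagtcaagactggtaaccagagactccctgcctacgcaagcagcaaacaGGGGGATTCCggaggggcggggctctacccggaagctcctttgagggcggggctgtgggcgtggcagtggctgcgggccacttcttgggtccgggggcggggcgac
Rel: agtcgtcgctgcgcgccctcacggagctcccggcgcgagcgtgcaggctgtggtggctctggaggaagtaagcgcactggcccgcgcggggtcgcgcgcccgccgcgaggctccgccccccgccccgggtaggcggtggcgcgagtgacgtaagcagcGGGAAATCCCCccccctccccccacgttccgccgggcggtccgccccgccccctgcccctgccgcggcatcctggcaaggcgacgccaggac

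The match of Nfkbia lay 29 to 20 bases before its start, that of Nfkbie 106 to 97 bases and that of Rel 92 to 82 bases. Tnfaip3 and Nfkb2 have more than 1 start site, and their matches are shown with the neighbouring bases only. For Tnfaip3, the first start site had matches 125 to 116 bases (chr10:19015516-19015545 with the neighbouring bases, minus strand) and 12 to 3 bases before it (chr10:19015403-19015432), and the second had none. For Nfkb2, matches lay 39 to 29 bases (chr19:46304688-46304717, plus strand) and 11 to 2 bases (chr19:46304716-46304745) before the first start site, 236 to 227 bases before the second (chr19:46305449-46305478) and 225 to 216 bases before the third (chr19:46305695-46305724). In the same order these stretches read:
Tnfaip3, far match: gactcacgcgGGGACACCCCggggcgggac
Tnfaip3, near match: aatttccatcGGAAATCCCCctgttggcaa
Nfkb2, start site 1, far match: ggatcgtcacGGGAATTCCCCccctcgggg
Nfkb2, start site 1, near match: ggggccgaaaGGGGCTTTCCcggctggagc
Nfkb2, start site 2: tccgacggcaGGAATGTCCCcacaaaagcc
Nfkb2, start site 3: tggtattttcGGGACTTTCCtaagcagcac

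**Figure D1:**
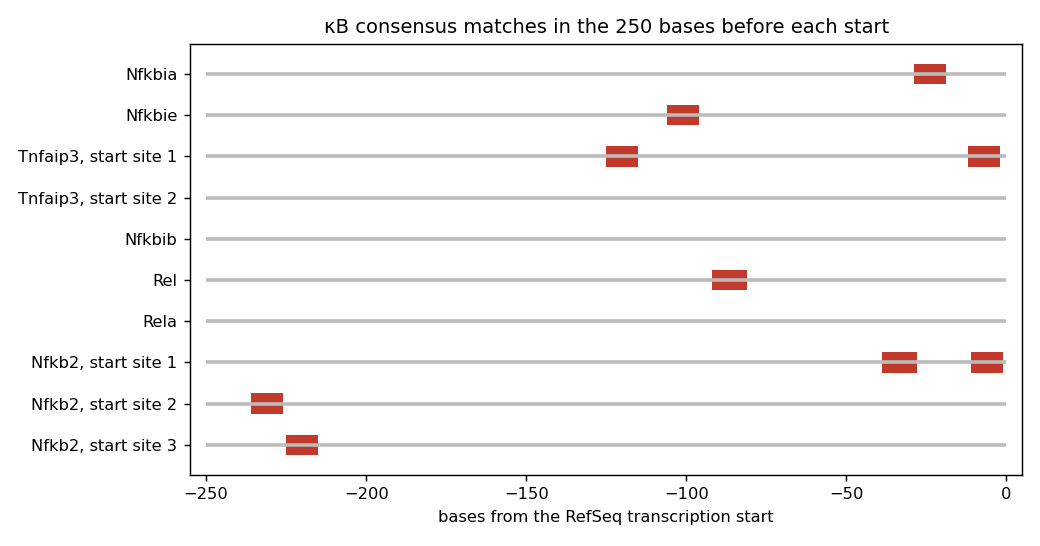
Positions of κB consensus matches (red boxes) in the 250 bases before each RefSeq start (grey lines), with the distance from the start in bases on the x axis and 1 line for each entry of the 7 genes that had one. The match of Nfkbia, the near match of Tnfaip3 and both matches of Nfkb2 start site 1 lie within the last 40 bases before the start. The entries of Nfkbib and Rela are empty.

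The files hold TPM values only and no record of read depth. Between the replicates of a group, Pearson's r over the tested genes was 0.962 to 0.981, across genes, which are not independent replicates. Of 8 macrophage markers 7 had a mean of at least 1 TPM, led by Lyz2 (lysozyme) at 7831 to 15989 TPM. Of the other cell types, the marker sums were highest for fibroblasts and neutrophils. The 5 markers of fibroblasts summed to 150.2 to 200.5 TPM without C498 and to 618 to 911 TPM with it. The macrophage markers summed to 19847 to 20355 TPM in NC, 16586 to 17222 in LPS, 15253 to 15412 in C498 and 10626 to 12411 in C498+LPS, so that both marker sums moved with C498. Those for neutrophils were 82.3 to 135 TPM in NC and 52.6 to 55.9 in C498, and 97.3 to 123 in LPS and 72.2 to 81.6 in C498+LPS, with Ngp at 0 in every sample and 3 of 8 markers at a mean of at least 1 TPM. Mesothelial markers summed to 4.55 to 5.45 TPM without C498 and 13.2 to 20.6 with it, and those of dendritic cells to 0.89 to 2.09 and 3.20 to 4.95. Eosinophil markers, with Epx at 0, summed to 1.46 to 2.12 TPM without and 0.60 to 1.35 with the compound, so that these 3 sums too moved with C498 without overlap. For mast cells the sum was 7.45 to 20.8 TPM, for B cells 3.41 to 12.5, for endothelial cells 2.59 to 7.18 and for T cells 0.46 to 2.83. The part of these cells in the results below was not tested.

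LPS raised the RNA of all 10 genes, 1.7-fold for Relb and 14.1-fold for Nfkbiz, beside 9.84% of tested genes that rose. C498 alone also raised 9 of them, to levels between those of NC and LPS, beside 9.29% of tested genes. With only the NC and C498 samples in the fit, 1 of these passed, Tnfaip3. When C498 came before LPS, none of the 10 passed the test against LPS alone, beside 16.8% of tested genes. Of the means, 5 were higher and 5 lower. The response to LPS on the log2 scale was smaller with C498 for all 10 genes, but no gene passed the test of that difference. Over all tested genes the difference was below 0 for 52.9%. With C498 the 10 genes started from a higher mean, which for Relb did not pass.

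The level of each gene in every sample is given first, beginning with the subunits. Nfkb1 (ENSMUSG00000028163, chr3:135584655-135691547, minus strand, GENCODE M21 on GRCm38 here and below) encodes a precursor that is processed to the p50 subunit. It stood at 63.5 and 53.5 TPM in the NC samples, 264 and 238 in the LPS samples, 93.8 and 88.3 in the C498 samples and 298 and 273 in the C498+LPS samples. The 4 groups did not overlap, and C498+LPS was the highest. With LPS, Nfkb1 rose 4.28-fold by the ratio of group means (log2 change 2.08, SE 0.114, limma adjusted p = 3.76e-05). Nfkb2 (ENSMUSG00000025225, chr19:46304320-46312385, plus strand) encodes the precursor of p52, the subunit of the alternative pathway. Its levels were 62.1 and 57.2 TPM in NC, 315 and 292 in LPS, 82.6 and 82.3 in C498 and 258 and 218 in C498+LPS. Here LPS alone was the highest group, and both C498+LPS samples lay below both LPS samples. Nfkb2 rose 5.09-fold with LPS (log2 change 2.33, SE 0.108, limma adjusted p = 1.82e-05), the largest fold among the subunits. Its exons overlap those of Psd and AC114539.1 on the other strand, and whether reads were counted by strand is not given in the sources used here, so reads of these genes cannot be told apart.

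Rela (ENSMUSG00000024927, chr19:5637483-5648130, plus strand) encodes p65, the main transactivating partner of p50. It was measured at 60.6 and 51.2 TPM in NC, 131 and 115 in LPS, 77.9 and 83.8 in C498 and 119.7 and 115 in C498+LPS. The LPS and C498+LPS samples overlapped, and both groups lay above C498, which lay above NC. The rise with LPS was 2.20-fold (log2 change 1.13, SE 0.118, limma adjusted p = 0.00069). Relb (ENSMUSG00000002983, chr7:19606217-19629438, minus strand), the partner of p52, had levels of 47.3 and 47.2 TPM in NC, 83.0 and 78.2 in LPS, 55.2 and 59.4 in C498 and 73.1 and 68.1 in C498+LPS. Its groups did not overlap, but they lay closer together than those of the other 9 genes: the LPS mean was 1.71 times that of NC (log2 change 0.76, SE 0.0957, limma adjusted p = 0.00155). Rel (ENSMUSG00000020275, chr11:23736847-23770970, minus strand) encodes c-Rel, a subunit with a known part in Il12b transcription. Its RNA was the scarcest of the 10 in every group, at 7.71 and 3.83 TPM in NC, 22.8 and 17.9 in LPS, 17.6 and 14.8 in C498 and 38.1 and 32.6 in C498+LPS. The C498+LPS samples lay above all others, and the LPS samples lay just above those with C498 alone. With LPS, Rel rose 3.53-fold, with a wider error than the other genes (log2 change 1.71, SE 0.28, limma adjusted p = 0.00442). In a fit of the NC and LPS samples alone its adjusted p was 0.0531, and over all alternatives it ranged from 0.000591 to 0.0531.

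Among the inhibitors, Nfkbia (ENSMUSG00000021025, chr12:55489410-55492647, minus strand) encodes IκBα, which is degraded within minutes of a stimulus and made anew. It had the highest level of the 10 genes in every group. Its TPM were 175 and 148 in NC, 719 and 640.5 in LPS, 300.2 and 265 in C498 and 759.9 and 784 in C498+LPS. No 2 groups overlapped, and the order of the groups was that of Nfkb1. Nfkbia rose 4.21-fold with LPS (log2 change 2.07, SE 0.115, limma adjusted p = 4.01e-05). Nfkbib (ENSMUSG00000030595, chr7:28758251-28767512, minus strand) encodes IκBβ, a slower relative of IκBα. Its levels were 99.85 and 107 TPM in NC, 331.5 and 306 in LPS, 148 and 151 in C498 and 279.5 and 277 in C498+LPS, with LPS alone the highest group. The LPS mean was 3.08 times that of NC (log2 change 1.61, SE 0.084, limma adjusted p = 2.98e-05). Its exons overlap Sirt2 and Ccer2 on the other strand, with the limit given for Nfkb2. Nfkbie (ENSMUSG00000023947, chr17:45555703-45563169, plus strand) encodes IκBε. It lay at 34.0 and 26.6 TPM in NC, 111 and 105 in LPS, 51.5 and 48.7 in C498 and 98.8 and 89.7 in C498+LPS, in the same order of groups as Nfkbib, and rose 3.58-fold with LPS (log2 change 1.82, SE 0.133, limma adjusted p = 0.000137).

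Nfkbiz (ENSMUSG00000035356, chr16:55811375-55838899, minus strand) encodes IκBζ, an inducible nuclear relative of the IκB proteins that joins p50 dimers on DNA and is known to help transcribe Il6. Its samples were at 9.33 and 6.09 TPM in NC, 118 and 98.6 in LPS, 26.5 and 24.2 in C498 and 134 and 114 in C498+LPS. The LPS and C498+LPS samples overlapped, far above the other groups. Nfkbiz rose 14.1-fold with LPS (log2 change 3.67, SE 0.196, limma adjusted p = 3.32e-05), the largest change among the 10 genes. Tnfaip3 (ENSMUSG00000019850, chr10:19000910-19015657, minus strand) encodes A20, an enzyme that edits ubiquitin chains on signalling proteins upstream of IKK. Its levels were 33.0 and 22.5 TPM in NC, 199 and 164 in LPS, 103 and 96.4 in C498 and 241 and 221 in C498+LPS. The groups did not overlap, and C498 alone lay farther above NC, at 3.59-fold, than for any other of the 10 genes. With LPS it rose 6.54-fold (log2 change 2.69, SE 0.181, limma adjusted p = 9.73e-05).

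**Figure D2:**
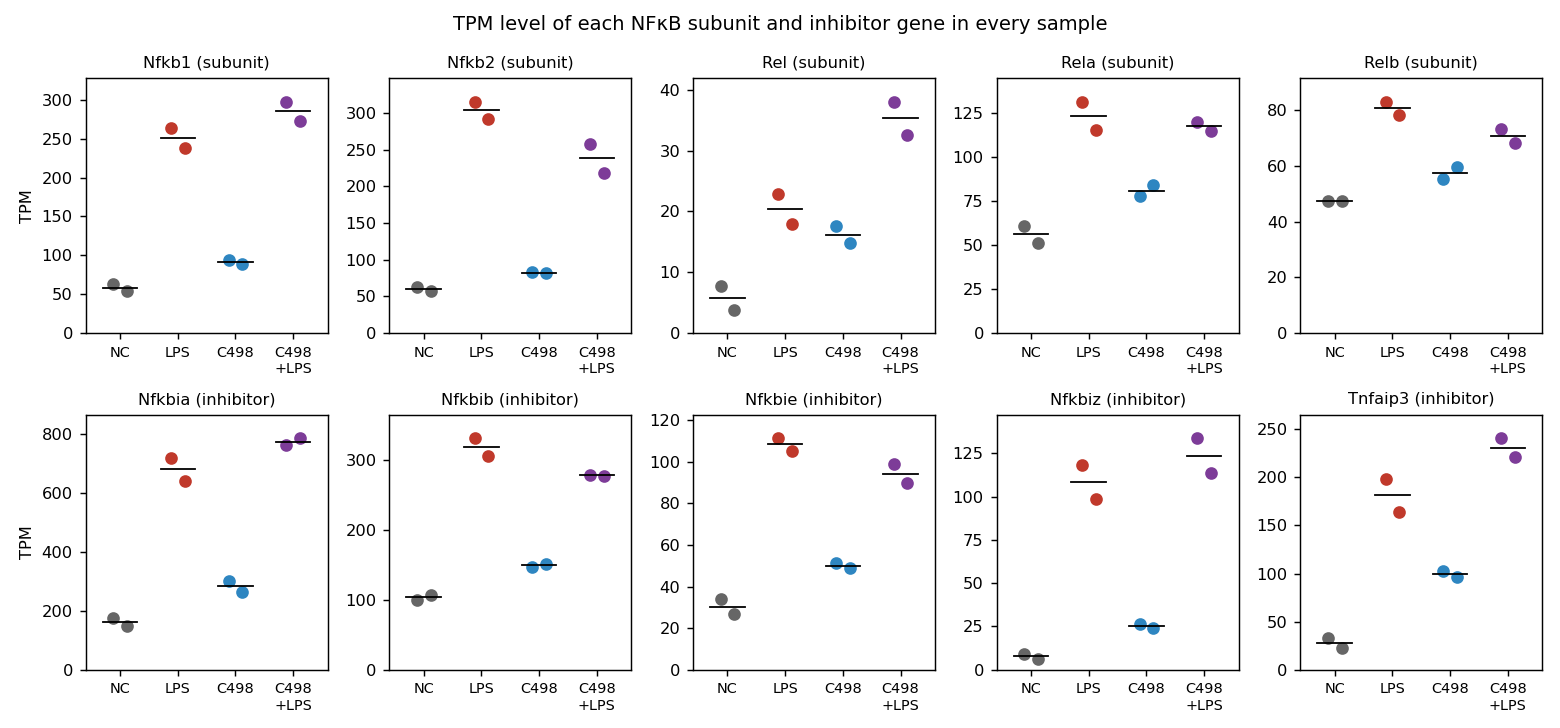
TPM level (y axes, linear from 0) of each of the 10 genes in the 2 samples of NC, LPS, C498 and C498+LPS (points; bars are group means). Every gene is lowest in the NC samples; LPS or C498+LPS is highest, and C498 alone lies in between, at 99.7 TPM for Tnfaip3 beside 27.7 in NC and 182 in LPS.

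The order of the genes by level changed between groups. In NC it ran from Nfkbia (161 ± 19.2 TPM, SD, n = 2) and Nfkbib (104 ± 5.24) through Nfkb2, Nfkb1 and Rela, whose samples overlapped from one to the next, to Relb, Nfkbie and Tnfaip3, and ended with Nfkbiz (7.71 ± 2.29) and Rel (5.77 ± 2.74), which overlapped. Nfkbie and Tnfaip3 overlapped as well. In LPS, Nfkbia (679.5 ± 55.2 TPM) stood apart, Nfkbib (319 ± 17.7) and Nfkb2 (304 ± 16.7) overlapped, and Nfkb1 (251 ± 18.5) and Tnfaip3 (182 ± 24.3) followed without overlap. Below them, Nfkbiz overlapped with both Rela and Nfkbie. Nfkbiz thus went from the place next to the lowest in NC to the levels of Rela. With C498 alone Tnfaip3 (99.7 ± 4.67 TPM) came next after Nfkbia (283 ± 24.9) and Nfkbib (149.5 ± 2.41), above both precursor genes. In C498+LPS Nfkb1 (285 ± 17.6 TPM) and Nfkbib (278 ± 1.81) overlapped, as did Nfkb2 (238 ± 28.5) and Tnfaip3 (231 ± 14.1). By mean TPM over the 8 samples, 9 of the 10 genes lay between the percentiles 83.4 (Relb) and 97.1 (Nfkbia) of tested genes, and Rel lay at the percentile 58.6.

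In LPS vs NC, all 10 genes passed an adjusted p of 0.05 upwards, beside 9.84% of all tested genes, and 9 of them, all but Relb, also changed at least 2-fold, beside 5.55% of all tested genes. The LPS samples lay above the NC samples for all 10, which held for 19.3% of tested genes. The median log2 change was 1.94 over the 10 genes, 1.71 over the subunits and 2.07 over the inhibitors, while it was -0.17 over all tested genes. Centring each sample on its median gene took that overall median from -0.17 to -0.00054 and the median of the 10 genes to 2.11. In the fits without 1 sample, the same 9 genes changed at least 2-fold each time.

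C498 was compared with vehicle to see what the compound did without LPS. Of the 10 genes, 9 rose and Relb (log2 change 0.27, SE 0.0957, limma adjusted p = 0.1) did not pass, where 9.29% of all tested genes rose. At least 2-fold changes were seen for 3 genes, Tnfaip3, Nfkbiz and Rel, beside 5.64% of tested genes. The largest was that of Tnfaip3 at 3.59-fold (log2 change 1.83, SE 0.181, limma adjusted p = 0.00124), followed by Nfkbiz at 3.29-fold (1.62, SE 0.196, adjusted p = 0.00298) and Rel at 2.81-fold (1.40, SE 0.28, adjusted p = 0.0191). Nfkbia, the IκBα gene, rose 1.75-fold (log2 change 0.81, SE 0.115, limma adjusted p = 0.00567) and Nfkbie 1.65-fold (0.72, SE 0.133, adjusted p = 0.0143). Nfkb1 (1.56-fold, adjusted p = 0.0131), Rela (1.45-fold, adjusted p = 0.0267), Nfkbib (1.44-fold, adjusted p = 0.00859) and Nfkb2 (1.38-fold, adjusted p = 0.0308) rose less. The C498 samples lay above the NC samples for all 10 genes, as they did for 29.3% of tested genes. The medians of the log2 changes were 0.68 over the 10 genes, 0.53 over the subunits, 0.81 over the inhibitors and 0.014 over all tested genes.

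With only the NC and C498 samples in the fit, Tnfaip3 alone passed (adjusted p = 0.0352, the highest over its alternatives, the lowest being 0.000329). In that fit the 2-fold changes over all tested genes also went down, from 853 to 379. Without a filter on low values, which tests more genes, the number of the 10 genes that rose went from 9 to 6. Fewer of the 10 rose without C498 replicate 1 or C498 replicate 2, and fewer of all tested genes changed at least 2-fold. These fits leave 1 C498 sample, which is assumed to vary like the samples of the other groups. The median log2 change over the 10 genes was 0.63 and 0.72 in them, beside 0.68 with all samples. The direction was upwards for all 10 genes under all of these alternatives. The fibroblast markers, which summed to 150.2 to 192 TPM in the NC samples and 633 to 750.0 TPM in the C498 samples, moved in the same direction as these genes, and their part in the result was not tested.

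**Figure D3:**
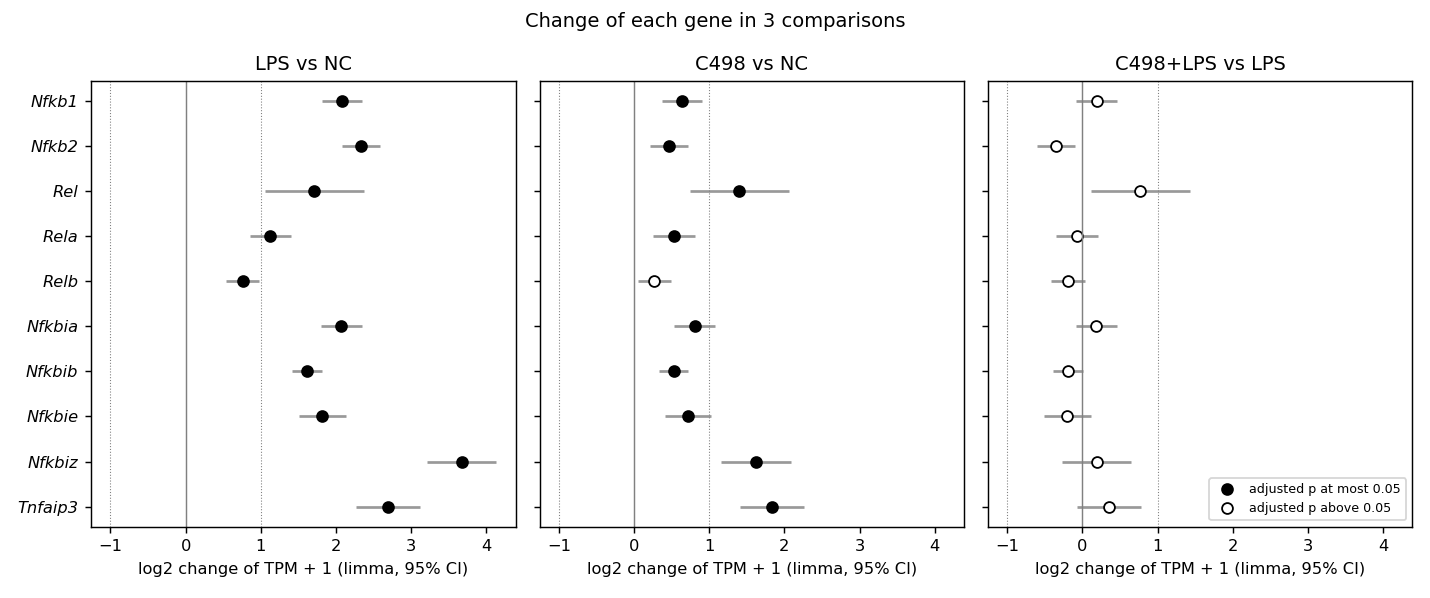
Log2 change of TPM + 1 of each gene (limma estimate with its 95% confidence interval) in LPS vs NC, C498 vs NC and C498+LPS vs LPS; filled points have an adjusted p of at most 0.05, and dotted lines mark 2-fold. All 10 points are filled for LPS and all but Relb for C498, and in C498+LPS vs LPS every point is open, from -0.35 for Nfkb2 to 0.77 for Rel.

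In C498+LPS vs LPS, which asks what the compound changed in stimulated cells, 0 of the 10 genes passed limma's test, beside 16.8% of all tested genes, 9.08% higher and 7.70% lower, and 7.57% that also changed at least 2-fold. At an unadjusted p under 0.05 there was 1 gene higher, Rel, and 1 lower, Nfkb2, while 16.0% of tested genes were higher and 15.1% lower at that p, so that the 2 of 10 were not above the background. Rel, the c-Rel gene, had a mean 1.74 times that in LPS alone (log2 difference 0.77, 95% CI 0.11 to 1.43, limma adjusted p = 0.11). Nfkb2 stood at 0.784 times its LPS mean (log2 difference -0.35, 95% CI -0.61 to -0.099, limma adjusted p = 0.0673). The other differences were smaller than 0.36 on the log2 scale in either direction. Tnfaip3 (1.27-fold, adjusted p = 0.244), Nfkb1 (1.14-fold, adjusted p = 0.317), Nfkbia (1.14-fold, adjusted p = 0.324) and Nfkbiz (1.14-fold, adjusted p = 0.575) had higher means, and Nfkbie (0.870, adjusted p = 0.359), Nfkbib (0.872, adjusted p = 0.165), Relb (0.876, adjusted p = 0.231) and Rela (0.951, adjusted p = 0.751) lower ones. The 95% intervals of these 8 differences reached at most 0.77 upwards and -0.51 downwards, so a 2-fold difference of any of the 8 lay outside its interval, while that of Rel ran past 2-fold. The samples did not overlap for 4 genes that were higher (31.9% of tested genes) and 4 that were lower (30.9% of tested genes), and for Rela and Nfkbiz they did. The medians of the log2 differences were 0.059 over the 10 genes, -0.069 over the subunits and 0.19 over the inhibitors, against 0.0065 over all tested genes.

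Rel and Nfkb2 were the genes whose call turned with the settings. With each sample centred on its median gene Rel passed at an adjusted p of 0.0495 and Nfkb2 at 0.0401, and the range over the alternatives was 0.0262 to 0.406 for Rel and 0.0319 to 0.286 for Nfkb2. Rel also passed with quantile normalization (0.0379) and without either of the NC samples (0.0267 and 0.0262), and Nfkb2 without C498+LPS replicate 1 (0.0476).

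The response to LPS was then taken separately with and without the compound. In C498+LPS vs C498, 9 of the 10 genes rose, beside 4.51% of tested genes, and 6 of them at least 2-fold, beside 2.52%. Relb again did not pass (1.23-fold, log2 change 0.30, SE 0.0957, limma adjusted p = 0.0778), though it did with centring (0.04) and with quantile normalization (0.0329), with a range of 0.0329 to 0.299 over the alternatives. The folds were 4.88 for Nfkbiz, 3.14 for Nfkb1, 2.89 for Nfkb2, 2.73 for Nfkbia, 2.31 for Tnfaip3 and 2.18 for Rel, and 1.88, 1.86 and 1.45 for Nfkbie, Nfkbib and Rela. Every C498+LPS sample lay above every C498 sample for all 10 genes, which held for 17.4% of tested genes. Fewer of the 10 rose without any 1 of the C498 or C498+LPS samples, fits that leave 1 sample in a group. Their median log2 change was 1.06 to 1.23 in these fits. Without either C498 sample, fewer of all tested genes changed at least 2-fold as well. The median log2 change was 1.14 over the 10 genes, 1.08 over the subunits, 1.20 over the inhibitors and -0.18 over all tested genes. With centring the median of the 10 genes was 1.36, and that of all tested genes 0.038.

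The difference between both responses was tested as the interaction of C498 and LPS in the same model. It was below 0 for all 10 genes, as it was for 52.9% of tested genes, and no gene passed limma's adjusted p, beside 0.492% of tested genes, 0.418% downwards. An unadjusted p under 0.05 was found for 9 of the 10, all but Rel, and in this direction for 6.21% of tested genes. The largest interaction was that of Tnfaip3 (-1.48, SE 0.256, limma adjusted p = 0.0749), where the log2 response to LPS was 2.69 from vehicle and 1.20 from C498. Nfkbiz followed (-1.43, SE 0.277, adjusted p = 0.103), with responses of 3.67 and 2.24. Nfkbib had the smallest adjusted p (-0.72, SE 0.119, adjusted p = 0.0681), and Nfkb2 was near it (-0.81, SE 0.153, adjusted p = 0.0942). For Nfkbie (-0.92, adjusted p = 0.117), Nfkbia (-0.62, adjusted p = 0.222), Rela (-0.60, adjusted p = 0.26), Relb (-0.46, adjusted p = 0.287), Nfkb1 (-0.45, adjusted p = 0.382) and Rel (-0.63, adjusted p = 0.623) the values were farther from the threshold. The median interaction was -0.68 over the 10 genes, -0.60 over the subunits, -0.92 over the inhibitors and -0.026 over all tested genes.

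Some calls depended on the scaling and on 1 NC sample. With each sample centred on its median gene, Nfkbiz (0.0427) and Tnfaip3 (0.033) passed, and with quantile normalization as well (0.0435 and 0.034). Without NC replicate 1, Nfkbie (0.0426), Nfkbiz (0.0426) and Tnfaip3 (0.0269) passed. Over all alternatives the adjusted p ran from 0.0426 to 0.456 for Nfkbie, from 0.0219 to 0.441 for Nfkbiz and from 0.0195 to 0.364 for Tnfaip3.

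**Figure D4:**
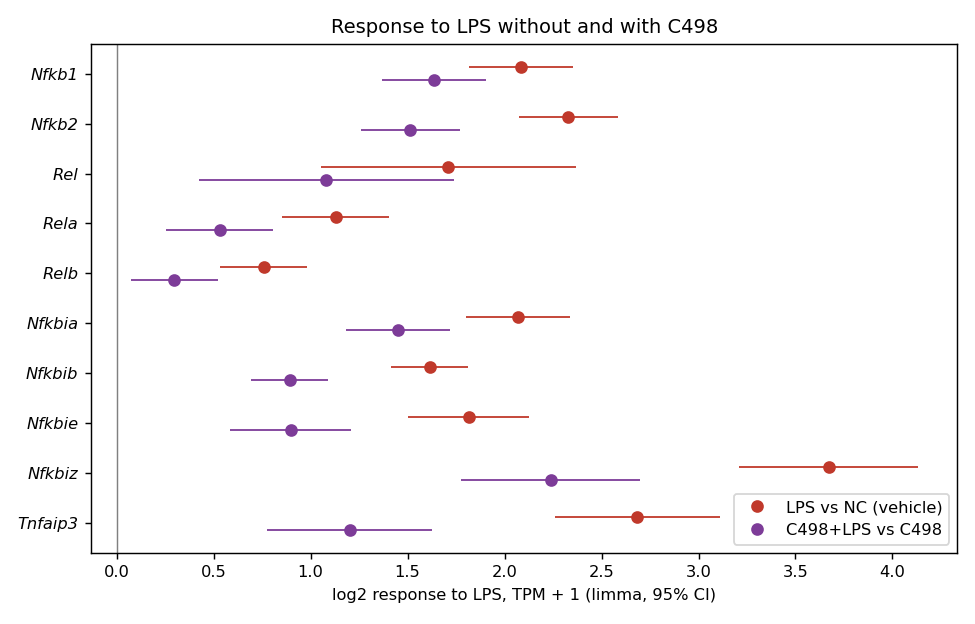
Log2 response to LPS (TPM + 1, x axis; limma estimate with its 95% confidence interval) of each gene without C498 (red, LPS vs NC) and with it (purple, C498+LPS vs C498). The purple point lies left of the red one for all 10 genes, with 1.20 beside 2.69 for Tnfaip3 and 2.24 beside 3.67 for Nfkbiz.

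A log2 response depends on the level it starts from, so the gain in TPM was set beside it. For 5 genes the gains with and without C498 differed by less than the sum of both standard errors. Nfkb1 gained 192 TPM (SE 14.0) in LPS vs NC and 194 TPM (SE 12.7) in C498+LPS vs C498. Nfkbiz gained 101 TPM (SE 9.98) and 98.3 TPM (SE 10.1), Nfkbia gained 518 TPM (SE 41.4) and 489.7 TPM (SE 21.5), and Rel gained 14.6 TPM (SE 3.15) and 19.1 TPM (SE 3.07). Tnfaip3 gained 154 TPM (SE 17.9) without and 131 TPM (SE 10.5) with the compound. In these genes the smaller log2 response stood beside a higher level before LPS and a gain in TPM that differed by less than that sum. For the other 5 genes the gain with C498 was lower by more than the sum of both standard errors. These were Nfkb2 (244 TPM, SE 12.1, against 156 TPM, SE 20.2), Nfkbib (215 TPM, SE 13.1, against 129 TPM, SE 2.13), Nfkbie (78.0 TPM, SE 4.73, against 44.2 TPM, SE 4.77), Rela (67.3 TPM, SE 9.33, against 36.4 TPM, SE 3.89) and Relb (33.4 TPM, SE 2.39, against 13.3 TPM, SE 3.24). The differences between the gains were not tested on the TPM scale.

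The RNA of both groups of genes was described by sums of TPM. The groups follow the names given at the opening. The subunit sum holds the precursors of p50 and p52, and the inhibitor sum holds Nfkbiz, whose protein also helps transcription. The ratio of the sums is therefore no measure of how far NFκB is held back. The 5 subunit genes summed to 241 and 213 TPM in NC, 816 and 741 in LPS, 327 and 329 in C498 and 787 and 706 in C498+LPS. The 5 inhibitor genes summed to 351 and 310.3 TPM in NC, 1478 and 1315 in LPS, 629 and 585 in C498 and 1513 and 1485 in C498+LPS. The subunit sums of LPS and C498+LPS overlapped, while the inhibitor sums of C498+LPS lay above those of LPS. The ratio of inhibitor to subunit TPM was 1.46 in both NC samples, 1.81 and 1.78 in LPS, 1.92 and 1.78 in C498 and 1.92 and 2.10 in C498+LPS. It was thus higher in all 6 treated samples than in vehicle, and higher in C498+LPS than in LPS alone, whereas C498 alone overlapped with both.

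The make-up of the subunit RNA shifted towards the precursors in the samples with LPS. The precursor genes Nfkb1 and Nfkb2 together made up 52.1% and 52.0% of subunit TPM in NC and 53.9% and 51.9% in C498, but 70.9% and 71.5% in LPS and 70.7% and 69.5% in C498+LPS. Nfkb1 per Rela was 1.05 in both NC samples, 1.20 and 1.05 in C498, 2.01 and 2.06 in LPS and 2.49 and 2.38 in C498+LPS. The ratio of Nfkb2 to Relb was 1.31 and 1.21 in NC, 1.50 and 1.38 in C498, 3.80 and 3.73 in LPS and 3.53 and 3.20 in C498+LPS. In the stimulated samples Nfkb1 per Rela was therefore higher with C498 and Nfkb2 per Relb lower, without overlap. Of single tested genes, 31.9% were higher and 30.9% lower without overlap between C498+LPS and LPS, and the ratios were not tested. Rel made up 1.80% and 3.20% of subunit TPM in NC, 2.41% and 2.80% in LPS, 4.50% and 5.38% in C498 and 4.62% and 4.84% in C498+LPS, so that its share was higher in the 4 samples with C498 than in the 4 without.

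Among the inhibitors, Nfkbia kept 45.2% to 52.8% of the summed TPM in all 8 samples. Nfkbib fell from 28.4% and 34.6% in NC to 22.4% and 23.3% in LPS and 18.5% and 18.6% in C498+LPS, while the summed TPM of the inhibitors rose. The share of Tnfaip3 was 7.25% and 9.40% in NC, 12.5% and 13.4% in LPS, 16.4% and 16.5% in C498 and 14.9% and 15.9% in C498+LPS. Nfkbia per Nfkbib was 1.38 and 1.75 in NC, 2.09 and 2.17 in LPS, 1.75 and 2.03 in C498 and 2.72 and 2.83 in C498+LPS, where it was higher than in any other sample. These ratios are descriptions of RNA levels with no test.

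**Figure D5:**
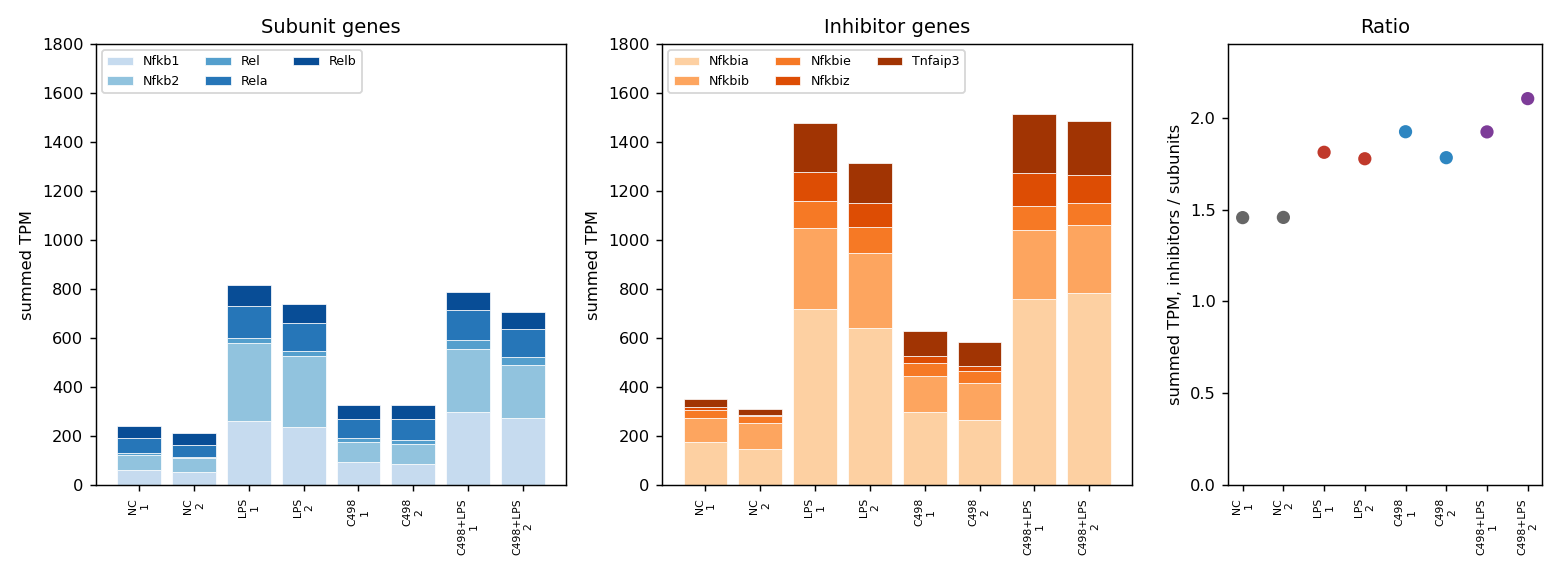
Summed TPM of the 5 subunit genes (left, blue stack) and of the 5 inhibitor genes (middle, orange stack) in each of the 8 samples, and the ratio of inhibitor to subunit TPM (right), with all axes from 0. The ratio is 1.46 in both NC samples and 1.78 to 2.10 in the 6 treated ones, and the precursors Nfkb1 and Nfkb2 take the larger part of the subunit stack after LPS.

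Over the 8 samples the 10 genes ran closely together, on a log2 scale that all of them share with the same samples. Pearson's r was highest for Nfkbia and Nfkbiz (0.996) and for Nfkb1 and Nfkbia (0.996), and lowest for Rel with Relb (0.793) and with Nfkb2 (0.795). With 8 samples in 4 groups such values mostly record the group means, and no p is given. The 2 tested genes outside the family whose pattern over the 8 samples was most like that of each gene were then listed. They were Ccl2, a chemokine for monocytes, and Stip1 for Nfkb1 (r of 0.997 for both), Spryd7 and Acod1, the itaconate enzyme, for Nfkb2 (0.998 for both) and Osgin2 (0.997) and Foxp1 (0.993) for Rel. For Rela they were Dusp16 and Pkp4 (0.994 for both), and for Relb Vta1 (0.993) and Slc15a3 (0.992). The inhibitor Nfkbia was most like Rnd3 and Stip1 (0.997 for both), Nfkbib like Ptx3 (0.998) and Nos2 (0.997), Nfkbie like Clic4 (0.998) and Plek (0.996), Nfkbiz like the adhesion molecule gene Icam1 (0.997) and the interleukin-1 receptor antagonist Il1rn (0.996), and Tnfaip3 like the cyclooxygenase gene Ptgs2 (0.997) and the chemokine Cxcl2 (0.995).

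Genes that act upstream of the IκB proteins did not move as a block. Of 13 genes of the IKK complex and the kinases before it, 3 rose in LPS vs NC, Tank, Map3k8 and Tab2, and 2 fell, Map3k14 and Tab1, while 9.84% of tested genes rose and 19.8% fell. Tank, an adaptor of the TRAF proteins, went from 50.5 ± 11.6 to 163 ± 5.79 TPM (SD, n = 2 each; log2 change 1.69, limma adjusted p = 0.000384). Map3k8, the Tpl2 kinase that p105 holds, went from 14.2 ± 1.95 to 30.2 ± 2.16 TPM (1.05, adjusted p = 0.00209). The calls of Tab2, Tab1 and Map3k14 were lost under 7 to 11 of the alternatives tried. The median log2 change of the 13 was 0.15. In C498 vs NC, Ripk1 rose (0.73) and Ikbkb (-0.33), Tab1 (-0.73) and Ikbke (-0.68) fell, beside 9.29% of tested genes that rose and 6.19% that fell, with a median of 0.28 over the list. In C498+LPS vs C498, Tank rose (0.69) and Tab1 fell (-0.75), beside 4.51% of tested genes that rose and 11.7% that fell, with a median of 0.0071. Each of the 6 calls with C498 in these comparisons was lost under 8 to 12 of 16 alternatives.

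Against LPS alone, 4 of the 13 genes were lower in C498+LPS and 1 was higher, beside 7.70% and 9.08% of tested genes. Ikbkg, which encodes the NEMO subunit that holds IKK together, was at 38.0 and 29.7 TPM in LPS and 16.5 and 13.02 in C498+LPS, and it fell by 1.14 on the log2 scale (SE 0.204, limma adjusted p = 0.0109). Ikbke, the kinase IKKε, was at 118 and 115 TPM in LPS and 65.0 and 51.0 in C498+LPS (log2 change -1.001, SE 0.154, limma adjusted p = 0.00633). Ikbkb, the kinase IKKβ that marks IκBα, stood at 80.1 and 83.0 TPM in LPS and 58.4 and 56.2 in C498+LPS (-0.50, SE 0.0885, adjusted p = 0.0103). Chuk, the other kinase of the complex (IKKα), did not pass, with 30.9 and 25.0 TPM in LPS and 33.7 and 31.9 in C498+LPS, so that here both C498+LPS samples lay above both LPS samples. Tab1 fell as well (-0.72, adjusted p = 0.046, with the call lost under 9 of 16 alternatives), and Map3k14, the NIK kinase of the alternative pathway, rose (0.94, adjusted p = 0.0141). The median over the 13 genes was -0.42, beside 0.0065 over all tested genes. Without LPS replicate 1 the adjusted p of Ikbkg was 0.0908 and without C498+LPS replicate 2 it was 0.0914, and that of Ikbke was 0.0504 to 0.0576 without LPS replicate 1, LPS replicate 2 or C498+LPS replicate 2. The macrophage markers too summed to less in C498+LPS (10626 to 12411 TPM) than in LPS (16586 to 17222 TPM), and their part in these differences was not tested. None of the 5 calls against LPS passed under every alternative tried. In the interaction 0 of the 13 passed with limma, 5 had an unadjusted p under 0.05, beside 11.1% of tested genes, and the median was -0.32.

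Of 12 genes of the TRAF and cIAP ubiquitin ligases, 5 rose in LPS vs NC, Traf1, Traf5, Rnf31, Birc3 and Traf2, and Rbck1 fell (-0.31), beside 9.84% and 19.8% of tested genes. Traf1, itself a known NFκB target, went from 21.7 ± 0.721 to 255 ± 4.93 TPM (log2 change 3.50, limma adjusted p = 1.7e-06), Traf5 from 9.16 ± 1.39 to 32.5 ± 0.255 TPM (1.73, adjusted p = 0.000174) and Rnf31, the catalytic subunit of the linear ubiquitin ligase, from 25.4 ± 2.62 to 58.4 ± 10.5 TPM (1.16, adjusted p = 0.00194). None of the 12 passed limma's test in C498 vs NC, where 4 had an unadjusted p under 0.05, near the 32.0% of tested genes, and the median was 0.19. In C498+LPS vs C498, Traf1 (2.42), Traf5 (1.08), Traf2 (0.47) and Ube2n (0.47) rose and Rbck1 fell (-0.49), beside 4.51% and 11.7% of tested genes. Against LPS alone Traf1 (-0.83, adjusted p = 0.00215) and Rbck1 (-0.39, adjusted p = 0.0338) were lower in C498+LPS, as were 7.70% of tested genes. The interaction of Traf1 was -1.08 (SE 0.136, limma adjusted p = 0.031), and it was the 1 gene of the list to pass there, beside 0.418% of tested genes. This call was lost under 11 of 15 alternatives (adjusted p of 0.0515 to 0.174), both scalings among them. The calls of Rbck1 were lost under 13 of 16 in LPS vs NC, 5 in C498+LPS vs C498 and 9 in C498+LPS vs LPS, and those of Traf2 and Ube2n in C498+LPS vs C498 under 6 each. The medians over the list were 0.50 in LPS vs NC, 0.29 in C498+LPS vs C498, -0.31 in C498+LPS vs LPS and -0.37 in the interaction.

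The list of other IκB-like proteins and nuclear cofactors held 12 genes, of which 11 were tested and Nkapl lay below the level filter. Nfkbid, which encodes the nuclear IκB-like protein IκBNS, rose in LPS vs NC (1.44) together with Nfkbil1 (0.81), 2 of 11 beside 9.84% of tested genes. With C498 alone Nfkbid went from 10.1 ± 0.834 to 37.7 ± 2.54 TPM (log2 change 1.81, SE 0.116, limma adjusted p = 0.000227), higher than the 28.3 and 29.7 TPM of the LPS samples. In C498+LPS it was at 52.7 and 51.1 TPM, above LPS alone (0.82, adjusted p = 0.00439) and above C498 alone (0.45, adjusted p = 0.0395). The last of these calls was lost without any 1 of the LPS, C498 or C498+LPS samples, without a filter on low values and without a variance trend (adjusted p of 0.0517 to 0.208). Bcl3, a nuclear relative that binds p50 and p52 dimers, lay between 37.7 and 50.1 TPM in all 8 samples and passed in none. Pdlim2, a nuclear protein known to promote the degradation of p65, went from 12.4 ± 0.0919 to 4.26 ± 0.721 TPM in C498 vs NC (-1.35, adjusted p = 0.00299, but 0.0548 with only the groups compared) and from 10.1 ± 0.198 to 3.94 ± 0.191 TPM in C498+LPS vs LPS (-1.17, adjusted p = 0.00432). Nkiras2, which slows the degradation of IκB proteins, was lower in C498 vs NC (-0.43), C498+LPS vs C498 (-0.67) and C498+LPS vs LPS (-0.84), and Nfkbil1 was lower in the last (-0.74). Of the 11 genes, 1 rose and 2 fell in C498 vs NC, beside 9.29% and 6.19% of tested genes. In C498+LPS vs C498 1 rose and 1 fell, beside 4.51% and 11.7%. Against LPS alone 1 was higher and 3 were lower, beside 9.08% and 7.70%. For Nkiras2 the call in C498 vs NC was lost under 13 of 16 alternatives (adjusted p of up to 0.242) and that in C498+LPS vs C498 under 4 (up to 0.117), and for Nfkbil1 the call in LPS vs NC was lost under 2 and that against LPS under 3 (up to 0.116). No gene of the list passed with limma in the interaction, and 3 had an unadjusted p under 0.05, beside 11.1% of tested genes. The medians over the 11 genes were -0.15, -0.022, -0.032 and 0.25 in these 4 comparisons, with LPS vs NC first and C498+LPS vs LPS last, and 0.055 in the interaction.

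Partners of A20, deubiquitinases and other brakes on the pathway made up a list of 14 genes, of which 13 were tested and Traip lay below the filter. With LPS, 6 rose, beside 9.84% of tested genes: Zc3h12a from 25.9 ± 2.07 to 169 ± 1.82 TPM (2.66, limma adjusted p = 1.33e-05), Tnip1 from 75.7 ± 4.00 to 307 ± 22.7 TPM (2.00, adjusted p = 3.43e-05), Usp18 from 119.9 ± 1.57 to 374 ± 17.9 TPM (1.63, adjusted p = 3.13e-05), and Irak3 (1.46), Rnf11 (1.31) and Tnip3 (0.56). Zc3h12a encodes the RNase Regnase-1, Tnip1 an adaptor of A20, Usp18 an enzyme that removes ISG15 and Irak3 an inhibitory relative of the IRAK kinases. The same 6 rose in C498+LPS vs C498, beside 4.51% of tested genes, by 2.11 for Zc3h12a, 1.44 for Tnip1, 0.93 for Usp18, Irak3 at 0.93, 0.92 for Tnip3 and 0.84 for Rnf11. Beside LPS alone, Usp18 fell by 1.02 (374 ± 17.9 to 184 ± 1.97 TPM, adjusted p = 0.000843), Irak3 by 1.17 (97.3 ± 5.30 to 43.2 ± 8.92 TPM, adjusted p = 0.00671) and Tnip1 by 0.50 (adjusted p = 0.0203) in C498+LPS, 3 of 13 beside 7.70% of tested genes. For Irak3 the adjusted p was 0.0528 to 0.0642 without LPS replicate 1, LPS replicate 2 or C498+LPS replicate 2. The call of Tnip1 was lost under 7 of 16 alternatives (adjusted p of up to 0.132), among them the fits without LPS replicate 1, LPS replicate 2 or C498+LPS replicate 2. In C498 vs NC 1 of the 13 was higher, Zc3h12a (0.49), and 1 lower, Usp18 (-0.32), beside 9.29% and 6.19% of tested genes. These calls were lost under 9 and 13 of 16 alternatives, with adjusted p of up to 0.157 and 0.232. The medians over the 13 genes were 0.48 in LPS vs NC, 0.13 in C498 vs NC, 0.17 in C498+LPS vs C498, -0.062 in C498+LPS vs LPS and -0.37 in the interaction, where 0 passed with limma and 3 had an unadjusted p under 0.05, beside 11.1% of tested genes.

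The RNA of 30 established NFκB target genes, among them Traf1 and Birc3 of the ligase list, was then described. The activity of NFκB itself was not measured. In LPS vs NC, 27 rose, beside 9.84% of tested genes, and Bcl2l1 (-1.40) and Plau (-0.46) fell, beside 19.8%. The 3 largest rises were those of the cytokine Il6 (1.43 ± 0.530 to 522 ± 14.5 TPM, log2 change 7.77, limma adjusted p = 4.59e-07), the chemokine Cxcl10 (25.05 ± 2.23 to 2729.8 ± 19.6 TPM, 6.71, adjusted p = 4.59e-07) and Ptgs2 (4.09 ± 2.19 to 487 ± 87.7 TPM, 6.64, adjusted p = 1.23e-05). C498 alone raised 18 and lowered 3, Ebi3 (-0.71), Slc2a6 (-0.54) and Sod2 (-0.36), beside 9.29% and 6.19% of tested genes. Among the 18, Ptgs2 reached 78.8 ± 7.08 TPM (4.04, adjusted p = 0.000309), the chemokine Cxcl1 went from 12.4 ± 0.445 to 122 ± 12.2 TPM (3.20, adjusted p = 1.83e-05) and Ier3 from 68.2 ± 3.18 to 422 ± 45.5 TPM (2.61, adjusted p = 3.67e-05). From the level with C498, LPS raised 22, beside 4.51% of tested genes, and lowered Bcl2l1 (-0.95) and Plau (-0.89), beside 11.7%. Il6 went from 8.735 ± 0.629 to 412 ± 16.1 TPM (5.41, adjusted p = 5.74e-06), Il1b from 36.2 ± 1.51 to 1289.8 ± 216 TPM (5.11) and Cxcl10 from 120.5 ± 14.8 to 2168 ± 222 TPM (4.16).

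In C498+LPS vs LPS, where none of the 10 subunit and inhibitor genes passed, 15 of the 30 target genes did, in both directions, beside 16.8% of tested genes, and the difference between the lists was not tested. There were 6 higher, with Ier3 from 179 ± 14.8 to 528 ± 6.84 TPM (1.56, limma adjusted p = 0.000461) and Vcam1 from 17.9 ± 1.13 to 46.0 ± 10.6 TPM (1.29, adjusted p = 0.0101) at least 2-fold. The call of Vcam1 was lost without LPS replicate 1, LPS replicate 2 or C498+LPS replicate 2 (adjusted p of 0.0683 to 0.0863). Of the 9 lower genes, Slc2a6 (360 ± 10.8 to 164 ± 20.5 TPM, -1.14, adjusted p = 0.00122) and Ebi3 (65.7 ± 3.50 to 29.8 ± 0.332 TPM, -1.11, adjusted p = 0.00211) changed at least 2-fold, and Tnf was lower by less (-0.57, adjusted p = 0.00961, but 0.0546 to 0.0746 without LPS replicate 1, LPS replicate 2 or C498+LPS replicate 2). The interaction passed downwards for 11 of the 30, beside 0.418% of tested genes, among them Ptgs2 (-3.34), Cxcl10 (-2.55), Il6 (-2.36), Cxcl1 (-2.22) and Tnf (-1.70). Of the 11, Cxcl1 and Cxcl10 passed under every alternative; the adjusted p reached 0.172 for Ptgs2, 0.102 for Il6 and 0.0773 for Tnf. The medians over the 30 genes were 1.99 in LPS vs NC, 0.76 in C498 vs NC, 1.33 in C498+LPS vs C498, -0.31 in C498+LPS vs LPS and -0.86 in the interaction.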

How the data were processed

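RNA of 8 samples, 2 each of NC, LPS, C498 and C498+LPS, was sequenced by the authors on an Illumina NovaSeq. Reads were filtered with fastp, aligned with HISAT2, assembled with StringTie and quantified with RSEM; the genome build, annotation and tool versions are not given in the sources used here. The authors deposited the TPM of each gene by sample, with group means that were not used. TPM keeps no read depth, and as all samples have 1 common total, a rise of some genes lowers the others.

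Values were taken as log2(TPM + 1), which draws the changes of low genes towards 0. For 12189 genes the mean TPM reached 1, and these were fitted with limma 3.58.1 in R 4.3.3, with 1 mean for each group, all 8 samples in the fit and a variance trend. Adjusted p are Benjamini-Hochberg values over all tested genes, and a gene was said to rise or fall at an adjusted p of at most 0.05. The steps were tested on simulated data. The study's DESeq2 test needs counts, which were not analysed here, and its thresholds, that p and a fold change of at least 2, were kept for the counts of 2-fold changes. GENCODE M21 on GRCm38 held 97.4% of the tested identifiers. Promoters are those of RefSeq on GRCm38.p6. Tables were handled with pandas 2.3.3 and drawn with matplotlib 3.10.9 in Python 3.11.15.

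The 10 genes, the 5 pathway lists and the marker lists were chosen with earlier results of these data known. From each pathway list and comparison, up to 3 genes in each direction with the largest log2 change among those changed at least 2-fold without overlap are named with levels; other genes are named where a count was 5 or fewer, or, as Bcl3, Ikbkb, Tab1, Map3k14, Tnf and the genes of the interaction, after their values were seen. Alternative settings changed the pseudocount (0.1), the level filter (none, or a mean of 5 TPM), the scaling (centring on the median gene, quantile normalization), the samples fitted (only the groups compared, or each sample left out in turn), the variance trend (none), the fold threshold (none) and the design (the replicate number as a block).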

Additional observations from a re-analysis of the deposited data

How the results depend on the processing

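For the 10 genes in the 5 comparisons, 714 of 790 values under an alternative kept their direction and their side of an adjusted p of 0.05. Of the others, 54 lost the call, 20 gained it and 2 changed sign. The 2 were the log2 difference of Rela in C498+LPS vs LPS, 0.037 with quantile normalization and 0.025 without LPS replicate 1, neither past the threshold; over the fits without 1 sample it ranged from -0.16 to 0.025. In LPS vs NC 1 call, that of Rel, was lost, with only the groups compared. In C498 vs NC 34 calls were lost, and in C498+LPS vs C498 19 were lost and 2 gained. Without the fold threshold, the 3 genes changed at least 2-fold in C498 vs NC became 9, and with only the groups compared 1. With both thresholds, the adjusted p and a 2-fold difference, the interaction counted 2 of the 10 genes with centring, 2 with quantile normalization and 2 with the replicate block, beside 0 otherwise except without NC replicate 1. Over all 12189 tested genes, 41 were lower and 9 higher with centring, and 52 and 10 with quantile normalization. Leaving out each sample in turn, where the sample left in that group is assumed to vary like the others, gave 9 in LPS vs NC each time, 2 to 3 in C498 vs NC, 4 to 6 in C498+LPS vs C498, 0 in C498+LPS vs LPS and 0 to 3 in the interaction. In the pathway lists, calls that passed under every alternative were 2 of 5 for the IKK genes, 4 of 6 for the ligases, 1 of 2 for the IκB-like genes, 5 of 6 for the brakes and 26 of 29 for the targets in LPS vs NC, and 0 of 5, 1 of 2, 3 of 4, 1 of 3 and 8 of 15 in C498+LPS vs LPS. In C498 vs NC they were 0 of 4, 1 of 3, 0 of 2 and 11 of 21 for the 4 lists other than the ligases, in C498+LPS vs C498 0 of 2, 2 of 5, 0 of 2, 3 of 6 and 18 of 24 for the 5 lists, and in the interaction 0 of 1 ligase and 2 of the 11 targets. Over all tested genes, the counts of 2-fold changes were 1491 in LPS vs NC, 853 in C498 vs NC, 688 in C498+LPS vs C498, 923 in C498+LPS vs LPS and 57 in the interaction. Leaving out samples moved them to 1182 to 1641, 345 to 1381, 366 to 720, 470 to 956 and 9 to 92. The lowest of these came without LPS replicate 1, C498 replicate 1, C498 replicate 1, LPS replicate 2 and LPS replicate 1, and the highest in C498 vs NC and in the interaction without NC replicate 1. Other samples that moved a count by over 1.5 times were C498 replicate 2 (390 in C498 vs NC, 369 in C498+LPS vs C498, 36 in the interaction), C498+LPS replicate 2 (449 in C498+LPS vs C498, 474 in C498+LPS vs LPS, 32 in the interaction), LPS replicate 1 (488 in C498+LPS vs LPS) and, in the interaction, LPS replicate 2 (13), C498 replicate 1 (20) and C498+LPS replicate 1 (23). Without the fold threshold they were 3609, 1886, 1980 and 2045 in the first 4. A mean TPM of at least 5 gave 566 in C498 vs NC and 594 in C498+LPS vs LPS, only the groups compared gave 379 in C498 vs NC, and the interaction had 18 without a filter and 12 without a variance trend. Centring raised the share of higher genes among those with 2-fold changes from 45.4% to 61.7% in LPS vs NC and from 44.6% to 68.9% in C498+LPS vs C498 and lowered it from 80.5% to 67.7% in C498 vs NC. Quantile normalization gave 60.1%, 61.0% and 67.3%. The cause of these shifts was not tested. The samples share replicate numbers, but the labels do not say what a number marks, and deviations of samples with the same number correlated at 0.0397 to 0.168. With the number as a block, Rel (0.0288) and Nfkb2 (0.0319) passed in C498+LPS vs LPS, and Nfkb2 (0.0452), Nfkbiz (0.0219) and Tnfaip3 (0.0195) in the interaction. The depth is unknown, so how counting noise limits Rel and Nfkbiz in NC, at 3.83 to 9.33 TPM, is known only from 2 samples.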
